A study of Mus musculus with 2 samples.

Results

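The tuft cell genes described here were Dclk1, Trpm5, Pou2f3, Avil, Sh2d6, Alox5, Alox5ap, Ptgs1, Hpgds and Gfi1b, 10 of the 40879 gene symbols counted, and they were found by an exact match of the symbol. All 10 were in both libraries' tables. Reads were counted in intestine tissue of WT and ERAP1+/- mice, which the study's methods describe as 8 weeks old, on a C57BL/6 background and germ-free, and kept in a specific pathogen-free facility. ERAP1+/- mice came from a tm1a allele of Erap1 whose exons 6 and 7 lie between loxP sites, crossed to a strain that expresses Cre recombinase and is not named. The labels name no treatment. Each genotype was 1 library, made from equal amounts of RNA of 3 mice, so that no difference has a replicate check and no p-value is given.

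Tuft cells are rare chemosensory cells of the intestinal epithelium, with a bundle of microvilli at their tip. They sense succinate and other products of parasites and microbes through a cascade like that of taste cells, which ends in the cation channel Trpm5. They answer with interleukin 25, leukotrienes and prostaglandins, and by this route take part in type 2 immunity. Pou2f3 is the transcription factor that the lineage requires.

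The library labelled WT held 8114826 reads and the library labelled ERAP1+/- 8907515, of which mitochondrial and ribosomal RNA took 18.0% and 16.7%. Erap1 had 229 and 2 reads, or 0.730% of the WT level in the library labelled ERAP1+/-, which is below what 1 intact copy at full output would give. The reads come from the 3' end of the transcript, which lies outside the deleted exons, so that they do not test the deletion itself. Cast, on the opposite strand, overlaps that end and had 1702 and 1381 reads. All 16 genes of an intestinal epithelial list were present in both libraries. A list of 20 skin genes summed to 29329 and 444 reads, a list of 20 skeletal muscle genes to 14494 and 2242 reads, and 4 Y-linked genes to 612 and 46 reads. Xist had 1635 and 6451 reads. The part of these differences in the results for tuft cell genes was not tested.

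Levels are given as CPM, reads per 1000000 of the library size after TMM scaling (trimmed mean of M values), and ratios as CPM in the library labelled ERAP1+/- over CPM in the library labelled WT. Each ratio carries an exact 95% interval from the read counts, which covers counting error only and not the variation between mice. Where no read was counted, a level of as much as 3 reads remains possible, which is 0.386 CPM for the library labelled WT and 0.322 CPM for the library labelled ERAP1+/-. In whole tissue, a change in the number of tuft cells and a change in RNA per tuft cell cannot be told apart.

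The 10 genes did not move as 1 group. Trpm5, Dclk1, Avil, Sh2d6, Alox5 and Alox5ap had higher levels in the library labelled ERAP1+/-, while the prostaglandin enzymes Ptgs1 and Hpgds had lower levels. Those 8 genes had at least 10 reads over both libraries. Pou2f3 and Gfi1b had fewer. Among the 8, the largest ratio was that of Sh2d6 (3.90) and the smallest that of Hpgds (0.643).

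**Figure D1:**
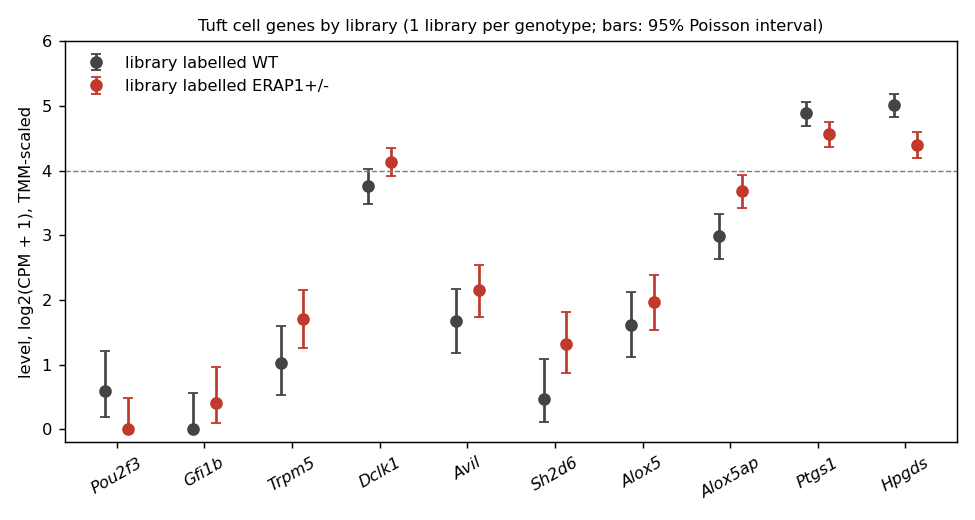
Level of each tuft cell gene as log2(CPM + 1) after TMM scaling, for the library labelled WT (grey) and the library labelled ERAP1+/- (red), with exact 95% Poisson intervals of the counts. The dashed line marks a level of 4, which Dclk1, Ptgs1 and Hpgds reached in 1 or both libraries.

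By the fold rule of 2 on the log2(CPM + 1) scale, with a level of at least 4 in 1 or both libraries, 0 of the 10 genes were called. Over all genes past that level, 5.34% were called. Only Dclk1, Ptgs1 and Hpgds reached the level, so that the rule could have called 3 of the 10. The log2(CPM + 1) scale draws genes with few reads toward 0. On the ratio itself, with at least 10 reads over both libraries, 2 of 8 genes were more than 2-fold higher (Trpm5 and Sh2d6) and 0 of 8 more than 2-fold lower. The shares over all 16142 genes with that many reads were 7.22% higher and 8.78% lower. Both genes have fewer than 50 reads, and of all genes with 10 to 50 reads, 20.5% were more than 2-fold higher.

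The interval lay above 1 for 3 of the 8 genes (Dclk1, Sh2d6 and Alox5ap) and below 1 for 2 (Ptgs1 and Hpgds). It lay above 1 for 20.6% and below 1 for 23.8% of all genes with at least 10 reads. The median log2 difference of the 10 genes on the log2(CPM + 1) scale was 0.39, and 0.43 over the 8 with at least 10 reads. Over all genes with at least 10 reads it was 0.002.

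**Figure D2:**
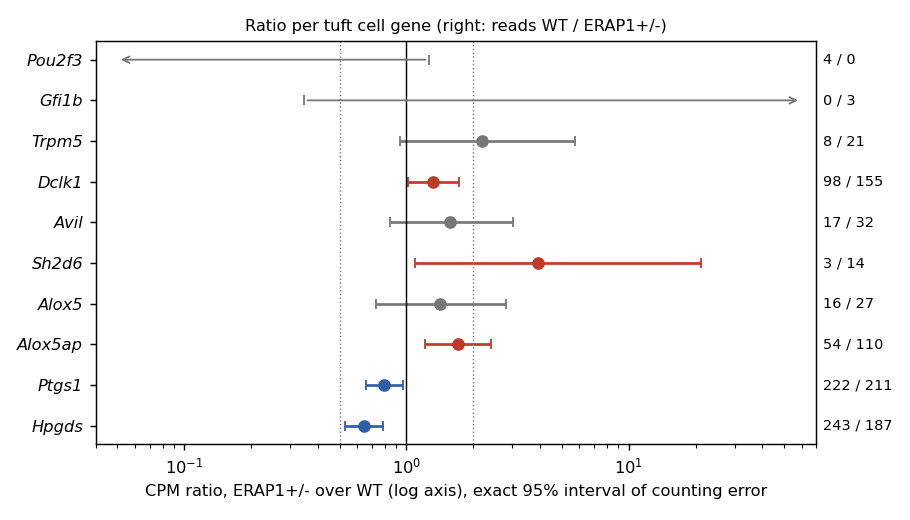
CPM ratio of each tuft cell gene, library labelled ERAP1+/- over library labelled WT, on a log axis with exact 95% intervals. Red intervals lie above 1, blue intervals below 1 and grey intervals include 1, and arrows mark Pou2f3 and Gfi1b, which had 0 reads in 1 library. Numbers at the right are reads in the library labelled WT and the library labelled ERAP1+/-.

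Promoter sequences are shown for Trpm5 and Sh2d6, which had the largest ratios, for Dclk1, the member with most reads among those with higher levels, and for Hpgds, which had the smallest ratio among the 8 genes with at least 10 reads. All are the 250 bases before the start site in RefSeq on GRCm38.p6, written 5' to 3' on the strand of the gene. Capitals mark the octamer ATGCAAAT, the classical site of POU transcription factors such as Pou2f3.
Trpm5, chr7:143094643-143094892, minus strand: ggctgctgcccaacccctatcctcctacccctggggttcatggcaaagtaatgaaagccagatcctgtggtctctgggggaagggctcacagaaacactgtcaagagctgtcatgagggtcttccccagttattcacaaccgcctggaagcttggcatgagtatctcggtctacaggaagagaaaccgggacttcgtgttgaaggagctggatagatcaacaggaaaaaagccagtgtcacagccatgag
Sh2d6, chr6:72520037-72520286, minus strand: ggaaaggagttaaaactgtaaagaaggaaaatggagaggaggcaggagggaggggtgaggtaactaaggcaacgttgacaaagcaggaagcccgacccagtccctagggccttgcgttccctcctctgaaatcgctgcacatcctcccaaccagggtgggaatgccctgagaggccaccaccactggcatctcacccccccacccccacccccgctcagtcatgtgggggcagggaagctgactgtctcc
Dclk1, upstream start, chr3:55242114-55242363, plus strand: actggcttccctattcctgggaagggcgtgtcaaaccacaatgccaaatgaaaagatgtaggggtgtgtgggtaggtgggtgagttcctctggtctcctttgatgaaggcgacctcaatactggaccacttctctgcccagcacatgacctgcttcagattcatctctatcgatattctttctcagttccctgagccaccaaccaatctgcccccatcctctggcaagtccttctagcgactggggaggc
Dclk1, downstream start, chr3:55461478-55461727, plus strand: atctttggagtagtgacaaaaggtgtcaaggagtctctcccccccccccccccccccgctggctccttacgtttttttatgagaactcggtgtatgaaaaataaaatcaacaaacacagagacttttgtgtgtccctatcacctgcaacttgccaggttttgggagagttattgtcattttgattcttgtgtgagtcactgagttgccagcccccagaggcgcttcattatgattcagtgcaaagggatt
Hpgds, chr6:65144731-65144980, minus strand: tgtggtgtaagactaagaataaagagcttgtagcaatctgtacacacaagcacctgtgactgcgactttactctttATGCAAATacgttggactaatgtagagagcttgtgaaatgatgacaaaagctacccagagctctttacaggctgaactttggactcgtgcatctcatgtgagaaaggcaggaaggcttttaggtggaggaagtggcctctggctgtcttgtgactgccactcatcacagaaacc

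RefSeq promoters were found for 8 of the 10 genes, 9 windows in all since Dclk1 has 2 starts, and not for Pou2f3 and Alox5ap. In windows of 300 bases, from 250 before to 50 after the start, the octamer was searched on both strands. It was in 1 of the 9 windows, that of Hpgds, with its first base 174 bases before the start. Of all 32851 promoter windows, 1.74% held it. The other windows did not hold these letters. The Dclk1 starts at 55242364 and 55461728 of chromosome 3 lead to transcripts of different length, and a count of reads at the 3' end does not separate them.

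Pou2f3 (ENSMUSG00000032015.16, chromosome 9 from 43123939 to 43210369 on the minus strand of GRCm38) had 4 reads in the library labelled WT and 0 in the library labelled ERAP1+/-. With the library labelled ERAP1+/- set at the floor of 3 reads the level would be 1.60-fold lower, which leaves out counting error in the 4 reads. The 95% interval of the ratio reached up to 1.27 and included 1. The gene is also expressed in the epidermis, and the 20 skin genes were 79.1-fold lower as a sum. Gfi1b, a zinc finger repressor that tuft cells share with the megakaryocyte and erythroid lineages, lies on chromosome 2 from 28609450 to 28621982. It had 0 and 3 reads, both at or under the floor, and no fold is given. No difference in either transcription factor was detectable at this depth.

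Trpm5 (chromosome 7, 143069153 to 143094642) had 8 reads in the library labelled WT and 21 in the library labelled ERAP1+/-, or 1.03 and 2.26 CPM. The ratio was 2.19, and its interval (0.933 to 5.72) included 1. The channel depolarizes the cell when calcium rises and is the last step of the taste-like cascade. Its gene overlaps Tssc4 on the opposite strand, which had 217 and 267 reads.

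Dclk1, a microtubule-associated kinase widely used as the marker of tuft cells in the mouse intestine, lies on chromosome 3 from 55242364 to 55539068. It had 98 and 155 reads, or 12.6 and 16.7 CPM. The level was higher in the library labelled ERAP1+/- by a ratio of 1.32 (95% interval 1.02 to 1.72). With that library thinned to the size of the other, the ratio was 1.29 and its interval (0.985 to 1.68) included 1. Neurons express Dclk1 as well, and a list of 12 enteric neuron genes was higher as a sum (124.962 and 208 CPM, 10 of 11 with at least 10 reads higher, none at 0).

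Avil encodes advillin, an actin-bundling protein of the villin family, on chromosome 10 from 127000709 to 127020994. It had 17 and 32 reads, or 2.19 and 3.44 CPM. The ratio of 1.57 had an interval (0.847 to 3.02) that included 1. The 3' end of Avil lies within Tsfm on the opposite strand, which had 30 and 50 reads. Whether the counting used strand is not given in the sources used here.

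Sh2d6, an adaptor protein with an SH2 domain, lies on chromosome 6 from 72513641 to 72521707 and had the fewest reads of the genes above the minimum. It had 3 reads in the library labelled WT and 14 in the library labelled ERAP1+/-, or 0.386 and 1.50 CPM. The ratio was 3.90, with a wide interval (1.09 to 21.2) because of the few reads.

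Alox5 and Alox5ap are partners in leukotriene synthesis. Alox5 (5-lipoxygenase, chromosome 6 from 116410077 to 116461178) oxidizes arachidonic acid, and Alox5ap (FLAP, chromosome 5 from 149264767 to 149288153) presents the fatty acid to it. Alox5 had 16 and 27 reads, or 2.06 and 2.90 CPM, with a ratio of 1.41 whose interval (0.733 to 2.80) included 1. Alox5ap had 54 and 110 reads, or 6.95 and 11.8 CPM, a ratio of 1.70 (95% interval 1.22 to 2.40). Its interval also lay above 1 with scaling by the total count or by the epithelial list and with the deeper library thinned. As a sum, the pair had a ratio of 1.63 (1.22 to 2.21). Macrophages, neutrophils and mast cells express both genes. Of 15 myeloid genes, 14 had at least 10 reads, 9 of them higher and 5 lower. The interval lay above 1 for 7 and below 1 for 1, beside 20.6% and 23.8% of all genes with at least 10 reads. S100a8 (49 and 165 reads, ratio 2.81) and S100a9 (52 and 171, 2.75) had the largest ratios, and Itgam (142 and 99, 0.582) the smallest. The sum of the 15 myeloid genes was 264 and 339 CPM, and Epx, an eosinophil granule gene, had no read in either library. The part of these cells in the levels of Alox5 and Alox5ap was not tested.

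Ptgs1 and Hpgds are the prostaglandin enzymes of the set. Ptgs1 (cyclooxygenase 1, chromosome 2 from 36230426 to 36252272) makes the prostaglandin H that Hpgds (hematopoietic prostaglandin D synthase, chromosome 6 from 65117293 to 65144908) turns into prostaglandin D. Ptgs1 had 222 and 211 reads, or 28.6 and 22.7 CPM, and was 1.26-fold lower in the library labelled ERAP1+/- (95% interval 1.04 to 1.53). With scaling by the total count its ratio was 0.866, with an interval (0.714 to 1.05) that included 1. Hpgds had 243 and 187 reads, or 31.3 and 20.1 CPM, and was 1.56-fold lower (1.28 to 1.89). Its interval also lay below 1 with scaling by the total count, by the epithelial list and with thinning. As a sum, the pair was 1.40-fold lower.

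Other cells of the gut wall make these enzymes too. A list of 12 mast cell genes summed to 31.5 and 32.5 CPM, or 245 and 302 reads, of which Kit gave 72 and 202. Of the 9 with at least 10 reads, 4 were higher and 5 lower, and Fcer1a had no read in either library. The mast cell protease genes Mcpt4 (34 and 3 reads), Tpsb2 (50 and 9), Cma1 (24 and 9) and Cpa3 (16 and 6) were each more than 2-fold lower, while Kit (72 and 202 reads), which interstitial pacemaker cells also express, was 2.34 times as high. Of 8 platelet genes, 5 had at least 10 reads and all 5 were lower, while 50.3% of all genes with at least 10 reads were higher. The interval lay below 1 for 3 of the 5, beside 23.8% of all those genes, and included 1 for Pf4 and Itgb3. The platelet sums were 124 and 66.5 CPM, of which Ppbp gave 50.7 and 7.09, and Gp9, Gp5 and Treml1 were at 0. A list of 10 smooth muscle genes summed to 9995 and 5220 CPM, with all 10 lower. The part of these cells in the levels of Ptgs1 and Hpgds was not tested.

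The members were also split into 5 genes that are not usual markers of mast cells, myeloid cells or platelets (Dclk1, Trpm5, Pou2f3, Avil and Sh2d6) and the other 5, which those lineages share. The former had 130 and 222 reads as a sum, a ratio of 1.43 (95% interval 1.14 to 1.79). Dclk1, which neurons express as well, gave most of these reads. Without it the sums were 32 and 67 reads and the ratio 1.75 (1.13 to 2.75). The other 5 had 535 and 538 reads and a ratio of 0.840 (0.744 to 0.949). Set against the former, the sum of the latter was 0.589 times as high in the library labelled ERAP1+/- as in the library labelled WT (95% interval of this ratio of ratios 0.456 to 0.759). Ptgs1 and Hpgds made up 69.9% of all reads of the 10 genes in the library labelled WT and 52.4% in the library labelled ERAP1+/-. The sum over all 10 genes was 665 and 760 reads. Its ratio was 0.955 (0.859 to 1.06), or 1.51 (1.27 to 1.81) without the pair.

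Goblet and enteroendocrine cells arise from secretory progenitors of the crypt, and tuft cells are often grouped with them. Of 12 goblet cell genes, all 12 were higher, with a summed ratio of 1.62 (95% interval 1.61 to 1.64). Among them Muc2, the main gel-forming mucin, had 12020 and 32939 reads. Of 15 enteroendocrine genes with at least 10 reads, 14 were higher, with a summed ratio of 1.996 (1.90 to 2.09). Of all genes with at least 10 reads, 50.3% were higher. The sum of the 5 narrower tuft cell genes, set against the goblet sum, gave a ratio of ratios of 0.878, with an interval (0.704 to 1.10) that included 1, and of 1.08 (0.696 to 1.70) without Dclk1. Against the enteroendocrine sum it was 0.715 (0.570 to 0.899), but this rests on Dclk1, which gave 155 of the 222 reads. Without Dclk1, a choice made after seeing the data, it was 0.876 with an interval (0.565 to 1.38) that included 1. With Dclk1 and against the sum of 16 general epithelial genes, which was 1.20-fold lower in the library labelled ERAP1+/-, it was 1.71 (1.37 to 2.14), and 2.10 (1.36 to 3.30) without it. The 5 shared members set against that epithelial sum gave 1.01 (0.892 to 1.14).

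**Figure D3:**
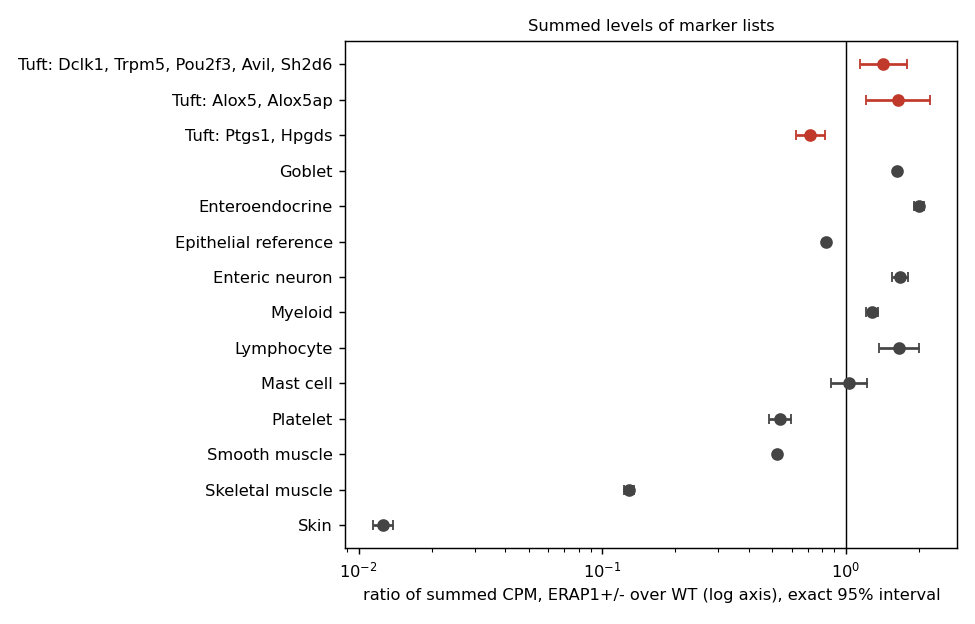
Ratio of the summed CPM of gene lists, library labelled ERAP1+/- over library labelled WT, on a log axis with exact 95% intervals of counting error. Tuft cell genes are in red. The 5 narrower genes (1.43) and the leukotriene pair (1.63) lie above 1, as do the goblet (1.62) and enteroendocrine (1.996) lists. Also above 1 are the enteric neuron (1.67), lymphocyte (1.65), myeloid (1.28) and mast cell (1.03) lists, the last with an interval that includes 1. The prostaglandin pair (0.715) lies below 1, as do the epithelial, platelet, muscle and skin lists.

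A wider list of 69 other tuft cell genes was examined, of which 68 were in the tables and 60 had at least 10 reads. Of the 60, 41 were higher and 19 lower in the library labelled ERAP1+/-, with a median log2 difference of 0.17. Over all genes with at least 10 reads, 50.3% were higher and the median was 0.002. The interval lay above 1 for 21 of the 60 and below 1 for 12, beside 20.6% and 23.8% of all genes with at least 10 reads. Of the 60, 10 were more than 2-fold higher and 1 more than 2-fold lower, beside 7.22% and 8.78% of all those genes. Many of these genes have broad expression. The 15 with 10 to 50 reads, a division made after the values were seen, had a median of 0.51, and 9 of them were more than 2-fold higher, against 20.5% of all genes in that range. The 45 with more reads had a median of 0.14, and 1 was more than 2-fold higher.

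**Figure D4:**
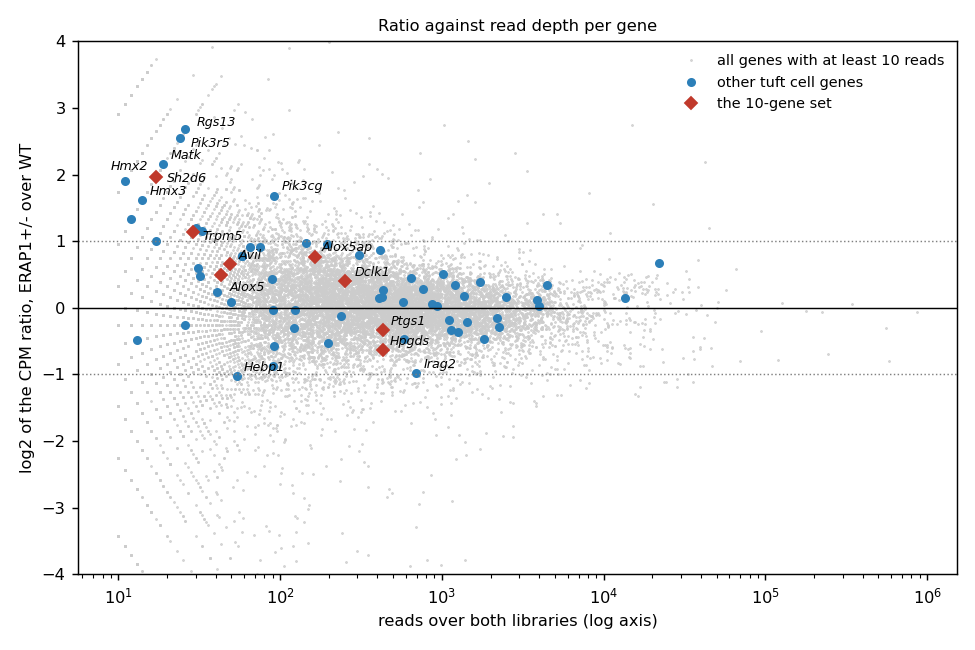
Log2 of the CPM ratio (library labelled ERAP1+/- over library labelled WT) against the reads over both libraries on a log axis, for 15712 genes with at least 10 reads (grey), other tuft cell genes (blue) and the tuft cell genes of the 10-gene set (red). A further 430 genes lie outside the axis or have a count of 0, and dotted lines mark 2-fold. Tuft cell genes with few reads lie mostly above 0, and those with many reads lie on both sides.

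Among the regulators and signalling proteins, Rgs13, which limits G protein signalling, had 3 reads in the library labelled WT and 23 in the other, and its ratio was 6.40 (1.93 to 33.3). Pik3r5, a regulatory subunit of phosphoinositide 3-kinase gamma, had 3 and 21 reads, and its catalytic partner Pik3cg had 19 and 73 reads. Their ratios were 5.85 (1.75 to 30.6) and 3.21 (1.92 to 5.63). Leukocytes express both. A list of 10 lymphocyte genes summed to 22.3 and 36.8 CPM, of which the pan-leukocyte gene Ptprc gave 14.0 and 26.2. Of the 4 lymphocyte genes with at least 10 reads, 3 were higher and 1, Cd4 (21 and 15 reads), was lower. Matk, a kinase that acts on Src family kinases, had 3 and 16 reads, a ratio of 4.45 (1.28 to 23.9). Which cells gave the reads of Rgs13, Pik3r5, Pik3cg and Matk was not tested. At the other end, Irag2, a protein of the endoplasmic reticulum membrane, had 432 and 261 reads and was 1.98-fold lower, and Hebp1, a haem-binding protein, had 34 and 20 reads and was 2.04-fold lower. Pla2g4f, Vav1 and Nrep followed, each 1.44-fold to 1.83-fold lower.

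Transcription factors of tuft cells other than the members were mostly higher. Of the 7 listed, 6 were higher, beside 50.3% of all genes with at least 10 reads. The interval lay above 1 for 4 of the 7, beside 20.6% of all those genes. These 4 were Spib (20 and 45 reads, ratio 1.88), Ascl2 (59 and 137, 1.94), Sox9 (1770 and 2694, 1.27) and Sox4 (668 and 1046, 1.31). Crypt progenitors express Ascl2, Sox9 and Sox4 as well, and which cells gave the reads of these 4 genes, Spib included, was not tested. The homeobox genes Hmx2 (2 and 9 reads) and Hmx3 (3 and 11 reads) had ratios of 3.76 and 3.06, with intervals that included 1. The remaining gene, Nfatc1, had a ratio of 0.917.

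The taste-like cascade had few reads. Gnat3 (gustducin) had 3 and 9 reads, Gng13, a G protein gamma subunit, 1 and 8, and Tas1r3, a taste receptor subunit, 2 and 7. Plcb2, the phospholipase of the cascade, had 11 and 20 reads, a ratio of 1.52 (0.694 to 3.51). Each of these genes had more reads in the library labelled ERAP1+/-, and each interval included 1. Itpr3, a calcium release channel of many epithelial cells, had 421 and 511 reads and a ratio of 1.01. Gnb3 and Tas1r1 had no read in either library. The succinate receptor gene Sucnr1 had 0 and 1 reads. Il25, the cytokine by which tuft cells alert innate lymphoid cells, had 0 reads in both.

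Of the 6 effectors listed, 5 had at least 10 reads, 4 of them higher and 1 lower. The interval lay above 1 for 1 and below 1 for 1, beside 20.6% and 23.8% of all genes with at least 10 reads. Chat, which makes acetylcholine in tuft cells and in neurons, had 8 and 22 reads, a ratio of 2.30 (0.985 to 5.97). Ltc4s makes leukotriene C from the product of Alox5 and had 9 and 24 reads, a ratio of 2.23 with a lower limit at 1.00. Pla2g4a, the cytosolic phospholipase that frees arachidonic acid, had 100 and 207 reads, a ratio of 1.73 (1.36 to 2.22). The effector that was lower was the phospholipase Pla2g4f, with 55 and 36 reads, a ratio of 0.547 (0.349 to 0.847). Tslp had 22 and 28 reads, a ratio of 1.06 (0.587 to 1.95). The short-chain fatty acid receptor gene Ffar3 had 5 and 12 reads.

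The eicosanoid pathway around the members showed no common direction. Of 39 genes listed, 2 of which (Pla2g4a and Ltc4s) are also in the list of other tuft cell genes, 35 had at least 10 reads, 17 higher and 18 lower. The interval lay above 1 for 8 of the 35 and below 1 for 8, beside 20.6% and 23.8% of all genes with at least 10 reads. Of the 5 phospholipases in that list, 3 had an interval above 1 and 2 an interval that included 1. Pla2g2a had the largest ratio of the 5 (14 and 60 reads, 3.58). Pla2g4f, the phospholipase named above that is not in that list, had an interval below 1. Downstream of Alox5, Lta4h, which makes leukotriene B, had 367 and 596 reads, a ratio of 1.36 (1.19 to 1.55). The lipoxygenases of the epidermis were far lower in the library labelled ERAP1+/-: Alox12b had 24 and 0 reads, Aloxe3 32 and 2, and Alox12e 123 and 1, beside the skin list given above. Around Ptgs1 and Hpgds, Ptgs2, the inducible cyclooxygenase, had 45 and 43 reads with an interval (0.513 to 1.24) that included 1. Ptges, a prostaglandin E synthase, had 59 and 42 reads and was 1.68-fold lower, and Hpgd, which breaks prostaglandins down, had 755 and 723 and was 1.25-fold lower. Ptgds, the other prostaglandin D synthase, had 11 reads in the library labelled WT and 1 in the other, a ratio of 0.0759 with a wide interval (0.00176 to 0.522). Of 11 receptor genes with enough reads, 5 were higher and 6 lower. Cysltr1, a cysteinyl leukotriene receptor, had 23 and 54 reads (1.96, 1.18 to 3.35), Ptger1 16 and 47 (2.45, 1.37 to 4.64), and Ltb4r1, the leukotriene B receptor, 17 and 6.

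**Figure D5:**
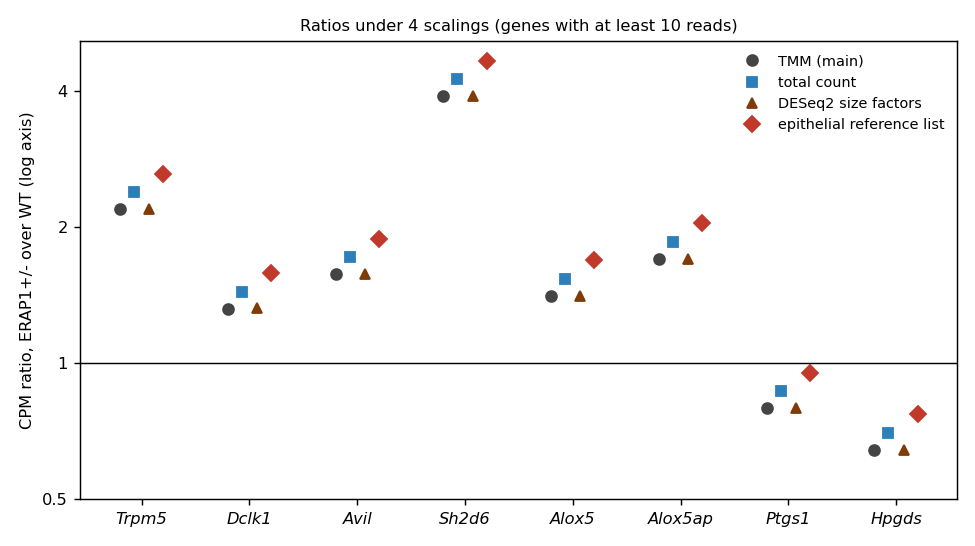
CPM ratio of the 8 tuft cell genes with at least 10 reads under 4 scalings, on a log axis. Each gene keeps its side of 1 under all 4, and Ptgs1 lies nearest to 1 with the epithelial reference list (0.952).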

How the data were processed

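Total RNA of intestine (1 ug per library) was made into libraries by QuantSeq 3' mRNA-Seq FWD and sequenced as single 75 bp reads. Values deposited by the authors are raw counts, 1 whole number for each gene symbol, in 1 library per genotype. The study's methods name STAR with HTSeq-count and, elsewhere, Bowtie2 with RSEM on GRCm38. The submitters' processing notes name GRCm38, Bowtie2 and RSEM. Which made the counts is not given in the sources used here. The depth per library was 8114826 reads (WT) and 8907515 (ERAP1+/-), so that genes with few reads have wide intervals.

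TMM factors were 0.958 and 1.04 (edgeR 4.0.16, R 4.3.3). Differences are on the log2(CPM + 1) scale and each ratio has a 95% interval from the exact conditional binomial distribution of the reads (scipy 1.17.1). Level intervals are exact Poisson intervals. Ratios of ratios carry exact conditional intervals of the odds ratio. Scripts were tested on simulated data. Samples were grouped by the genotype label. With 1 library per group no test between genotypes was made. The members and gene lists were chosen with earlier results of these data known. All 10 members were named, and from other lists the genes past 2-fold with at least 10 reads or with the 5 largest or smallest ratios. Gng13, Tas1r3, Sucnr1 and other genes outside that rule were named after their values were seen. No gene was named for a like pattern, since 2 libraries give 1 difference per gene. Positions are from GENCODE M21 on GRCm38 by symbol, promoters from RefSeq on GRCm38.p6. The alternatives were other scalings (total count, DESeq2 1.42.0 size factors, the epithelial list), scaling without skin and skeletal muscle lists or without mitochondrial and ribosomal RNA, thinning, a pseudocount of 0.1, other filters, a 4-fold threshold (which cannot add to 0 calls) and reduced member lists.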

Additional observations from a re-analysis of the deposited data

How the results depend on the processing

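No paired analysis was possible because there was 1 library per genotype. The fold rule called 0 of the 10 tuft cell genes with TMM scaling, and also 0 with scaling by the total count, DESeq2 size factors or the epithelial list, with other filters, with a pseudocount of 0.1 or with thinning. The pseudocount of 0.1 was run with the level of 4 kept, so that only Dclk1, Ptgs1 and Hpgds could be called. Without that level, differences past 2-fold at that pseudocount were those of Trpm5 (1.06), Sh2d6 (1.72), Gfi1b (2.08) and Pou2f3 (-2.62) in log2, all with few reads. The other filters kept the log2(CPM + 1) scale, which draws such genes toward 0. At a level of at least 6 no tuft cell gene was left. Scaling by the total count moved every log2 ratio by 0.13 and by the epithelial list by 0.26, and none of the 8 tuft cell genes with at least 10 reads crossed a ratio of 1. The median log2 difference of the tuft cell genes ran from 0.39 to 0.58 over the alternatives. The log2 ratio of their summed CPM was -0.07. It was -0.10 with thinning, -0.17 without Dclk1, 0.06 with the total count, 0.20 with the epithelial list, 0.51 without the 5 members of other lineages and 0.60 without Ptgs1 and Hpgds. Leaving out Dclk1, or Ptgs1 and Hpgds, was chosen after seeing the data. Intervals were above 1 for 3 genes and below 1 for 2, beside 20.6% and 23.8% of all genes with at least 10 reads. These numbers of tuft cell genes were 4 and 1 with the total count, 5 and 1 with the epithelial list, and 2 and 2 with thinning. The shares over all genes were not counted for these settings, and the other scalings move the ratio of every gene alike. Read depth limits Pou2f3, Gfi1b, Sh2d6 and the taste cascade genes, and the variation between mice is not known.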

Other observations

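A list of 8 genes that regulate the choice of secretory fates in the crypt, for or against, was examined. The interval lay above 1 for 6 of the 8, Sox9 and Sox4 among them, against 20.6% of all genes with at least 10 reads, and below 1 for 0. Atoh1, the factor that goblet and enteroendocrine cells require, had 97 reads in the library labelled WT and 310 in the other, and its ratio was 2.67 (95% interval 2.12 to 3.39). Gfi1, a paralog of Gfi1b that acts downstream of Atoh1, had 12 and 68 reads, a ratio of 4.73 (2.54 to 9.61). The Notch ligand genes Dll1 (17 and 43 reads) and Dll4 (24 and 80 reads) had ratios of 2.11 and 2.78. Notch1 and the Notch target Hes1 had intervals that included 1, with ratios of 1.02 and 1.05.

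The genes of type 2 immunity did not share a direction. Il4, Il5, Il13 and Il25 had no read in either library. Of 9 genes with at least 10 reads, 5 were higher and 4 lower. Retnlb, a goblet cell product of type 2 responses, had 36 and 118 reads (ratio 2.74, 1.87 to 4.10). Arg1 had 591 and 48 reads and was 14.7-fold lower, Gata3 had 71 and 25 and was 3.40-fold lower, and Areg had 659 and 249 and was 3.17-fold lower. The skin list was lower in the same library, and its part in these values was not tested. The receptor genes Il4ra (182 and 244 reads) and Il13ra1 (312 and 456 reads) had ratios of 1.12 and 1.22, and the interval of the latter lay above 1.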
